A study of Mus musculus with 2 samples.

Results

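The genes described here are 46 genes of DNA replication, chosen by name from a fixed list, and all 46 were among the 15416 genes of the count table. They were followed in 5976 cells sorted for the surface proteins CD45 and JAML from tumours of 3 mice, measured by droplet single-cell RNA sequencing in 1 library of 10x Genomics 5′ v2 chemistry. The hashtag names give the tumour as B16F10, a mouse melanoma line, and the treatment of all 3 mice as isotype control, so there was 1 experimental group with no treated arm. Strain, age and sex were not given in the sources used here. The comparison was made between classes of cells inside the same 3 mice. Dividing T cells were the authors' subclusters 8 and 14 (407 cells, with 237, 64 and 106 in mice 1, 2 and 3), and dividing dendritic cells were subcluster 11 (127 cells, with 65, 32 and 30). For each lineage a class of non-dividing cells served as reference, subcluster 5 for T cells (446 cells) and subcluster 6 for dendritic cells (369 cells). The choice of subcluster 6 followed the authors' coarser clusters. It was the largest other subcluster in the cluster named for Xcr1, which held most but not all cells of subcluster 11.

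The labels call all sorted cells T cells, and the counts did not bear this out for subcluster 11. All 12 T-cell markers were found in the dividing T cells, at a summed 8386 to 8484 CPM (the UMI counts of a class scaled to a fixed total, as counts per 1e6) across the mice. In subcluster 11 the same markers summed to 77.8 to 272 CPM. The 9 markers of conventional dendritic cells summed to 44569 to 49933 CPM in subcluster 11 and to 630 to 929 CPM in the dividing T cells. Macrophage markers were low in both classes, at 91.7 to 227 CPM in dividing T cells and 268 to 338 CPM in dividing dendritic cells. The mice gave 22004939 to 48047914 UMIs each. The dividing classes held 1821207 to 6934503 UMIs per mouse for T cells and 1019660 to 1942193 for dendritic cells, with medians of 17768 to 29366 and 30596 to 35978 UMIs per cell.

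A cell copies its genome once in each division. Origins are licensed when the origin recognition complex, Cdc6 and Cdt1 load the ring-shaped Mcm2-7 helicase. Cdc45, the Gins proteins and Mcm10 then turn the loaded ring into a moving helicase, primase and polymerases alpha, delta and epsilon make DNA behind it, RPA coats the exposed single strands, and the clamp Pcna, set by the Rfc loader, holds the polymerases. Fen1 and Lig1 process and join the fragments of the lagging strand, ribonucleotide reductase, Tyms, Tk1, Dtymk and Dut govern the nucleotide supply, Chaf1a, Chaf1b and Uhrf1 restore chromatin and DNA methylation, and Ung removes uracil from DNA. E2F factors, held back by proteins of the retinoblastoma family until late G1, are textbook activators of many of these genes. Mitotic genes are switched on later, largely through other promoter elements.

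Promoter sequences are shown because E2F motifs were frequent in them, a feature that the choice of members did not use. RefSeq promoters of build GRCm38.p6 (250 bases before to 50 after the annotated start) matched 39 of the 46 members. The stretches below each hold an E2F motif, in capitals, within their upstream bases. They are written 5′ to 3′ on the strand of the gene.
Mcm6: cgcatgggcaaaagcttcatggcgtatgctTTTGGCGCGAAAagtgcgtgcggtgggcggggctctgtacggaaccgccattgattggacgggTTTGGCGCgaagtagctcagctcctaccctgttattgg
Mcm5: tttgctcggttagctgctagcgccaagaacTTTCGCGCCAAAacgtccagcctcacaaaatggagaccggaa
Rfc3: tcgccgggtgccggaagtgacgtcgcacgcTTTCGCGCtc
Rrm1: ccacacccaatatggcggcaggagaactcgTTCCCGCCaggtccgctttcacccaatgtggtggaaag
Prim1: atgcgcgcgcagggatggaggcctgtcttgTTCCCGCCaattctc
Uhrf1: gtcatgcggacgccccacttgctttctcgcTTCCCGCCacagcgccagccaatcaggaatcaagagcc
These lie at chr1:128359715-128359845 (minus strand), chr8:75109326-75109397 (plus), chr5:151651209-151651248 (minus), chr7:102441598-102441665 (plus), chr10:128015170-128015214 (plus) and chr17:56303259-56303326 (plus). Each stretch lies upstream of the annotated start of its gene. In Mcm6 and Mcm5, sites on the 2 strands overlap in the first capitalised run.

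The motifs searched on both strands were TTTGGCGC, TTTCCCGC, TTTGCCGC and TTTCGCGC as the long form and GGCGGGAA as the core, which overlaps the reverse complement of TTTCCCGC where a further A follows. At least 1 of them stood in 18 of the 39 members (46.2%), in 2 of 37 genes of a mitosis list (5.41%), in 6.74% of the 11212 genes of the count table with a promoter, and in 3.97% of all 27025 promoters. The cell cycle homology region, TTTGAA or TTCGAA, showed the opposite arrangement, with 15.4% of the members, 81.1% of the mitosis genes and 19.4% of all promoters. The CCAAT box stood in 61.5% of the members, 83.8% of the mitosis genes and 37.9% of all promoters. Among the 15 matched members that were higher in dividing T cells, 8 (53.3%) held an E2F motif. No E2F motif stood in the windows of Dut, Ung, Rpa2, Mcm2, Pcna, Rrm2, Tyms or Tk1.

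Summed over all 46 genes, replication transcripts were highest in subcluster 8, at 5645, 5955 and 5550 CPM in the 3 mice. Subcluster 11 followed with 3076, 4097 and 3237 CPM. All 3 values of subcluster 8 lay above all 3 of subcluster 11. The non-dividing T cells of subcluster 5 came close behind at 3017, 3277 and 2114 CPM, overlapping subcluster 11. Subcluster 14, the second group of dividing T cells, reached 2552 CPM in mouse 1 and 1365 CPM in mouse 3 (mouse 2, with 9 cells, was not used), below subcluster 11 in both. The other 12 subclusters had means of 543 to 1380 CPM. The order was different for the 40 mitosis genes, which summed to 8031 CPM on average in subcluster 14 (mice 1 and 3), 7651 in subcluster 8 (3 mice), 5360 in subcluster 11 and 751 in subcluster 5, against 121 to 325 elsewhere. Subclusters 14 and 8 had no fixed order, with 6339 against 7483 CPM in mouse 1 and 9722 against 8560 CPM in mouse 3. The replication mean of subcluster 14 was below that of the non-dividing subcluster 5, and Rrm2, the regulated subunit of ribonucleotide reductase, stood at 31.0 CPM there against 311 CPM in subcluster 8. The subclusters were built by the authors on these same counts, so these levels are a description.

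**Figure D1:**
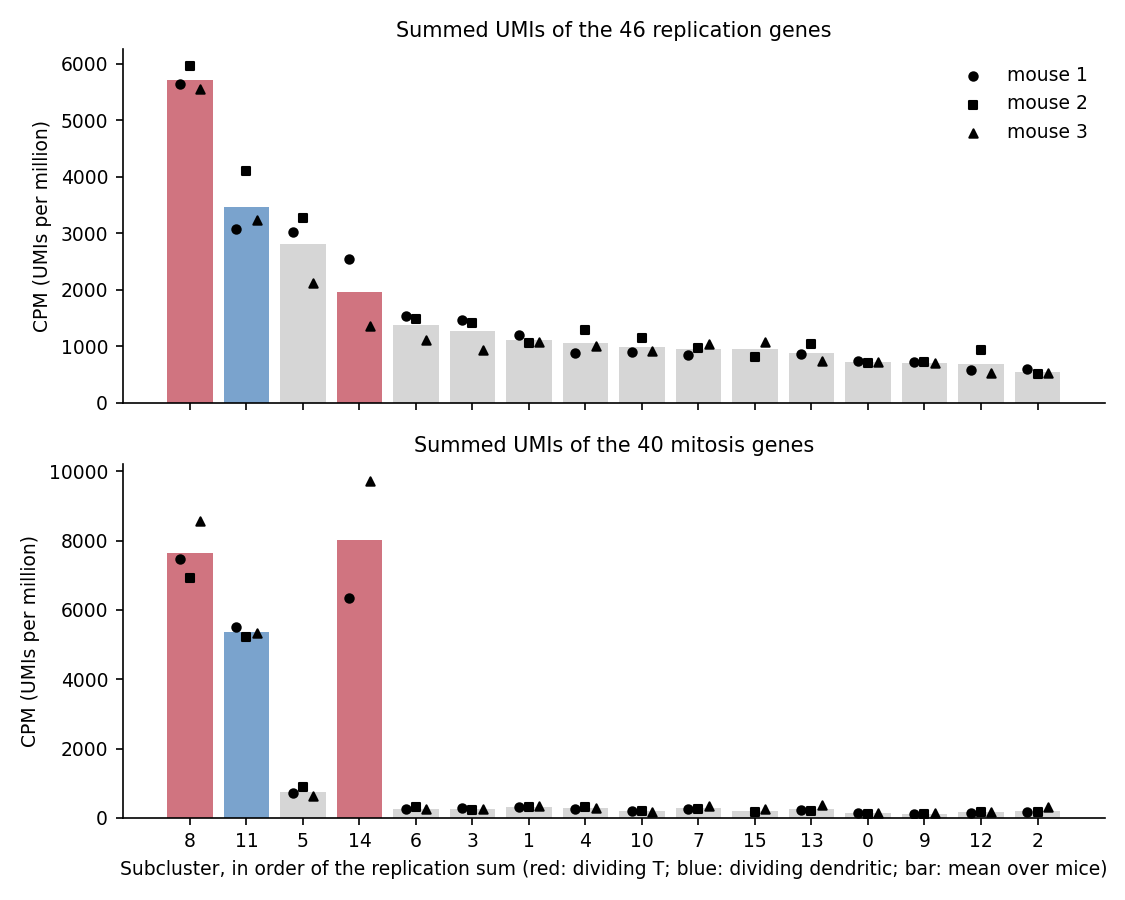
Summed CPM of the 46 replication genes (top) and of the 40 mitosis genes (bottom) in the 16 subclusters; bars are means over mice with at least 10 cells, points are single mice. Subcluster 8 leads the replication sum in every mouse, subcluster 5 reaches 2802 CPM with few mitosis transcripts, and subcluster 14 has a mitosis mean of 8031 CPM with a lower replication sum.

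With subclusters 8 and 14 together, the 46 genes summed to 5016, 5492 and 4981 CPM in dividing T cells (5163 ± 285, SD, n = 3) and to 3076, 4097 and 3237 CPM in dividing dendritic cells (3470 ± 549). The 2 groups of mice did not overlap. In UMIs per cell the groups overlapped, at 147, 156 and 107 in T cells and 91.9, 148 and 110 in dendritic cells, and the median dividing dendritic cell carried more UMIs in each mouse. The question put to each gene was whether its share of the transcriptome differed between the 2 dividing lineages.

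Of 45 members tested, 18 were higher in dividing T cells and 0 were lower, with 27 not called (edgeR's quasi-likelihood test with the mouse as a block, Benjamini-Hochberg adjusted p under 0.05 over 8853 genes). Over all genes tested, 20.5% were called higher in T cells and 23.4% lower, so that the members' calls fell on one side where those of all genes were spread over both. At an unadjusted p under 0.05 the members with a difference numbered 24 of 45. Of all 8853 genes tested 4473 passed the same line, a share near that of the members. The median log2 fold change of the members was 0.35 against 0.02 over all genes, with 41 positive and 4 negative. In 26 of the 45 members all 3 T values lay above all 3 dendritic values, as they did in 34.6% of all genes. The mitosis list, described in the same way, had 17 of 40 genes higher and 1 lower with a median of 0.30, so a share of calls like that of the replication genes was seen in other genes of dividing cells. Scaled to the number of cells, that list had 2 higher and 1 lower with a median of 0.14. The p-values compare classes that were themselves drawn on these counts.

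The count rested on the scale and on the mice. Scaled to the number of cells in place of total UMIs, the median over all genes moved from 0.02 to -0.15 and that of the members to 0.16. On this scale 5 members remained called, which were Dut, Mcm4, Pole2, Rpa2 and Ung. They made up 11.1% of the members, near the 10.9% of all genes that were called higher. Without mouse 1, which gave most of the dividing cells, 9 members were called (20%, against 14.3% of all genes called higher). DESeq2 called 10 (22.2%, against 11.4% of all genes). Without cells that also carried markers of the other lineage (22 T and 53 dendritic cells with at least 2 such UMIs) 11 were called. In that setting 24.4% of the members and 17.3% of all genes were called higher. The T markers used there included Cd8a, which some dendritic cells also express, so true dendritic cells may have been removed. In all of these settings 0 members were called lower.

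**Figure D2:**
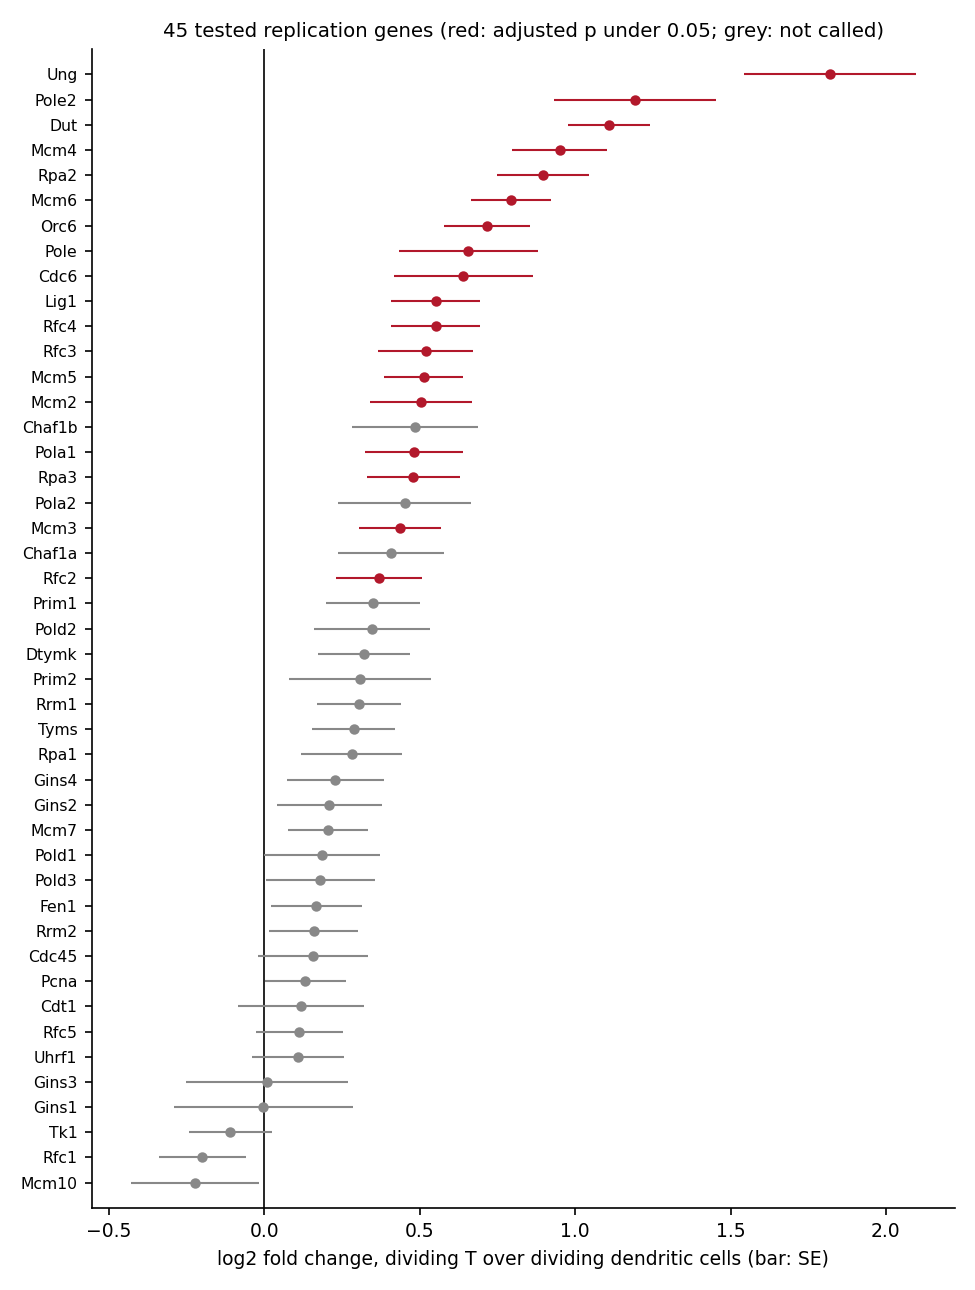
Log2 fold change of 45 replication genes in dividing T over dividing dendritic cells with its standard error, in order of size; red points passed the adjusted p of 0.05. The 18 called genes all lie to the right of 0, from Rfc2 at 0.37 to Ung at 1.82, and the 4 negative values lie between -0.22 and 0.

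Among the licensing factors, 2 of the 3 tested were higher in dividing T cells. Orc6, a subunit of the origin recognition complex, stood at 121, 141 and 116 CPM in the T cells of the 3 mice and at 62.8, 76.9 and 67.7 CPM in the dendritic cells. The groups lay well apart, with a log2 difference of 0.72 (SE 0.14, edgeR adjusted p = 0.000534). In subcluster 14 alone Orc6 stood at 46.1 and 22.7 CPM in mice 1 and 3, below the dendritic cells of those mice. Cdc6, the loading ATPase, had 27.3, 34.0 and 34.4 CPM against 12.9, 19.0 and 25.5 CPM. Its highest dendritic mouse came close to the lowest T mouse, the log2 difference was 0.64 (SE 0.22, edgeR adjusted p = 0.0297), and the call was lost in 9 of 15 alternatives, among them leaving out mouse 1 or mouse 2. Cdt1, the second loader, had 34.6, 40.6 and 45.9 CPM against 27.3, 45.8 and 28.4 CPM and was not called (log2 0.12, SE 0.20, edgeR adjusted p = 0.677). Dendritic mouse 2 matched the highest T value for Cdt1. Orc1 was too rare for the test, with 70 UMIs in dividing T cells and 7 in dividing dendritic cells.

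The Mcm2-7 ring gave the most calls of any group of members, with 5 of its 6 subunits higher in T cells. Mcm4 had 108, 121 and 112 CPM in dividing T cells and 56.6, 57.0 and 43.2 CPM in dividing dendritic cells. Every T value was far above every dendritic one, and the log2 difference was 0.95 (SE 0.15, edgeR adjusted p = 9.23e-05). Mcm6 had 222, 239 and 201 CPM against 113, 136 and 96.1 CPM, a log2 difference of 0.79 (SE 0.13, edgeR adjusted p = 9.50e-05). Again the lowest T mouse stood above the highest dendritic mouse. Mcm5 had 167, 212 and 161 CPM against 99.9, 131 and 111 CPM (log2 0.51, SE 0.13, edgeR adjusted p = 0.00392). Mcm2 had 69.2, 65.9 and 72.3 CPM against 40.2, 49.3 and 43.2 CPM (log2 0.50, SE 0.16, edgeR adjusted p = 0.0211). Mcm3 had 194, 189 and 168 CPM against 112, 137 and 120 CPM (log2 0.44, SE 0.13, edgeR adjusted p = 0.0135). For these 3 subunits too the groups did not overlap, but Mcm2 and Mcm3 lost their calls without mouse 1. Mcm7, the remaining subunit, had 158, 194 and 172 CPM against 116, 169 and 127 CPM, with dendritic mouse 2 inside the T range, and was not called (log2 0.21, SE 0.13, edgeR adjusted p = 0.217).

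The factors that activate the loaded helicase gave a different picture, with 0 of 6 called (edgeR adjusted p of 0.265 to 0.994). Their log2 differences ran from -0.22 for Mcm10 to 0.23 for Gins4. Cdc45, which rides with the helicase, had 53.8, 59.9 and 56.4 CPM in dividing T cells and 43.3, 36.3 and 58.8 CPM in dividing dendritic cells. Mcm10 had 24.2, 31.8 and 24.7 CPM against 21.6, 37.2 and 28.4 CPM. In both the groups overlapped. Whether the activation factors differ from the ring subunits in this contrast was not tested.

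Of the 9 polymerase and primase genes 3 were called, and all 9 had positive differences. Pole2, the second subunit of the leading-strand polymerase epsilon, had 24.1, 26.9 and 22.9 CPM in dividing T cells and 10.3, 10.4 and 7.85 CPM in dividing dendritic cells. The groups were far apart, and the log2 difference was 1.19 (SE 0.26, edgeR adjusted p = 0.00143). Pole, the catalytic subunit, had 29.6, 33.5 and 29.5 CPM against 18.5, 20.7 and 12.7 CPM (log2 0.66, SE 0.22, edgeR adjusted p = 0.0266), and Pola1, the catalytic subunit of polymerase alpha, differed by 0.48 (SE 0.16, edgeR adjusted p = 0.0206). Both lost their calls in 8 of 15 alternatives, including without mouse 1 and without mouse 2, and Pole also without mouse 3. Of polymerase delta, which extends the lagging strand, the members Pold1, Pold2 and Pold3 were not called, with log2 differences of 0.18 to 0.35.

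RPA, the trimer that coats single-stranded DNA, had 2 of 3 subunits called. Rpa2 stood at 124, 147 and 131 CPM in dividing T cells and at 54.6, 84.7 and 57.9 CPM in dividing dendritic cells. The difference held in each mouse, at a log2 of 0.90 (SE 0.15, edgeR adjusted p = 0.000116). Rpa3 differed by 0.48 (SE 0.15, edgeR adjusted p = 0.0166), a call lost without mouse 1 and without mouse 2, and Rpa1 by 0.28 (SE 0.16, edgeR adjusted p = 0.185). Pcna, the sliding clamp, had 172, 198 and 184 CPM against 136, 187 and 135 CPM. Its groups overlapped through dendritic mouse 2, and it was not called (log2 0.13, SE 0.13, edgeR adjusted p = 0.449). Of its loader, Rfc4, Rfc3 and Rfc2 were called at 0.55, 0.52 and 0.37, while Rfc5 (0.11) and the large subunit Rfc1 (-0.20) were not. Without mouse 1 the calls of Rfc3 and Rfc2 were lost, as they were without mouse 2 for Rfc3 and without mouse 3 for Rfc2.

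Lig1, the ligase that joins lagging-strand fragments, had 150, 180 and 167 CPM in dividing T cells and 83.4, 138 and 89.2 CPM in dividing dendritic cells (log2 0.55, SE 0.14, edgeR adjusted p = 0.00521). The groups did not overlap, although without mouse 1 the call was lost. Fen1, the flap nuclease that acts just before it, was not called at 0.17 (SE 0.15). The chromatin genes had 0 of 3 called. Uhrf1, which brings maintenance methylation to new DNA, had 87.7, 118 and 104 CPM against 79.3, 109 and 69.6 CPM, overlapping between the lineages (log2 0.11, SE 0.15, edgeR adjusted p = 0.598). Chaf1a and Chaf1b, subunits of the histone chaperone CAF-1, had larger differences of 0.41 and 0.49 that missed the threshold (edgeR adjusted p = 0.0676 and 0.0645).

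Nucleotide supply was split. Dut, which destroys dUTP before it can enter DNA, had 729, 732 and 592 CPM in dividing T cells and 228, 343 and 295 CPM in dividing dendritic cells. Its log2 difference of 1.11 (SE 0.13, edgeR adjusted p = 3.74e-06) had the smallest adjusted p of all members, and the lowest T mouse stood far above the highest dendritic mouse. The other 5 genes were not called. Rrm2 had 229, 274 and 302 CPM against 213, 255 and 178 CPM (log2 0.16, SE 0.14, edgeR adjusted p = 0.403). Tyms, the thymidylate synthase, had 205, 246 and 251 CPM against 134, 225 and 168 CPM (log2 0.29, SE 0.13, edgeR adjusted p = 0.0961). Tk1, the thymidine salvage kinase, had 148, 149 and 151 CPM against 130, 171 and 138 CPM (log2 -0.11, SE 0.13, edgeR adjusted p = 0.546). For Rrm2, Tyms and Tk1 the values of the lineages overlapped, as they did for Dtymk (log2 0.32, SE 0.15, edgeR adjusted p = 0.0933). Those of Rrm1 did not overlap, with T cells higher (log2 0.31, SE 0.14, edgeR adjusted p = 0.0803).

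Ung had the largest fold change of the members. It encodes the glycosylase that cuts uracil out of DNA, the second guard against uracil beside Dut. The 3 mice had 29.1, 39.0 and 29.5 CPM in dividing T cells and 10.3, 6.91 and 5.88 CPM in dividing dendritic cells. The lowest T mouse was well above the highest dendritic mouse, with a log2 difference of 1.82 (SE 0.28, edgeR adjusted p = 5.10e-05). Within the dividing T cells the Ung level lay in subcluster 8, at 34.7, 44.2 and 34.2 CPM. Subcluster 14 had 7.10 and 0 CPM in mice 1 and 3, below the dendritic cells of those mice. Of the 46 genes, Ung was the one whose mean was lower in dividing than in non-dividing cells of both lineages, with 41.4 ± 16.7 against 32.6 ± 5.57 CPM for non-dividing against dividing T cells (SD, n = 3) and 18.9 ± 5.23 against 7.70 ± 2.31 CPM for dendritic cells. Subclusters 0 and 9 also carried 32.7 and 32.2 CPM. In the RefSeq annotation of GRCm38.p6, Ung lies at chr5:114130366-114139321 and Dut at chr2:125247248-125259049.

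The calls of Dut, Mcm4, Pole2 and Rpa2 held in all 15 alternatives run, with log2 differences of 0.89 to 1.37 for Dut, 0.79 to 1.37 for Mcm4, 0.90 to 1.70 for Pole2 and 0.72 to 1.18 for Rpa2. Mcm5, Mcm6 and Orc6 lost theirs only with scaling to the number of cells. Ung lost its call in a single alternative, in which its log2 difference was 0.01. There dividing cells were taken by a gate on 5 mitosis genes in place of the subclusters, within 1 coarser cluster per lineage. For dendritic cells this was the cluster named for Xcr1. Dividing dendritic cells of other clusters were thus left out, and cells of other subclusters could enter. The other 10 called members lost the call in 2 to 9 alternatives each.

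Single cells showed where in the dividing classes these transcripts lay. After each cell was thinned to 7537 UMIs, the median dividing T cell held 38 UMIs of the 46 genes (quartiles 22 and 53) and 49.5 UMIs of the 40 mitosis genes. The median dividing dendritic cell held 19 replication UMIs (quartiles 6 and 42) and 37 mitosis UMIs. The quartiles lay further apart in dendritic cells, whereas the 10th and 90th percentiles, 3 and 51 UMIs, lay about as far apart as those of T cells, 12.5 and 64. Of 126 thinned dendritic cells 37 (29.4%) held under 8 replication UMIs, while their median of mitosis UMIs, 37, equalled that of the rest. By mouse the share was 37.5, 15.6 and 26.7%. Of 406 thinned T cells 10 (2.46%) fell under the same line, with 1.69, 1.56 and 4.72% by mouse. Among cells at or above it the median was 38 UMIs in T cells (37, 42 and 39 by mouse) and 35 in dendritic cells (31.5, 42 and 31). This dendritic median hid a split by the authors' coarser clusters. Cells at or above the line had a median of 26 UMIs in the cluster named for Xcr1 and 42 in that named for Ifitm1. Over all thinned cells the medians were 15 UMIs in the Xcr1 cluster, which held 80 of the 126 cells, and 35 in the Ifitm1 cluster. The line of 8 UMIs is the 10th percentile of the 2 classes together, and the classes were built on these counts, so no test is given. Unthinned, the median cell had UMIs of 35 members in T cells and 32 in dendritic cells.

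**Figure D3:**
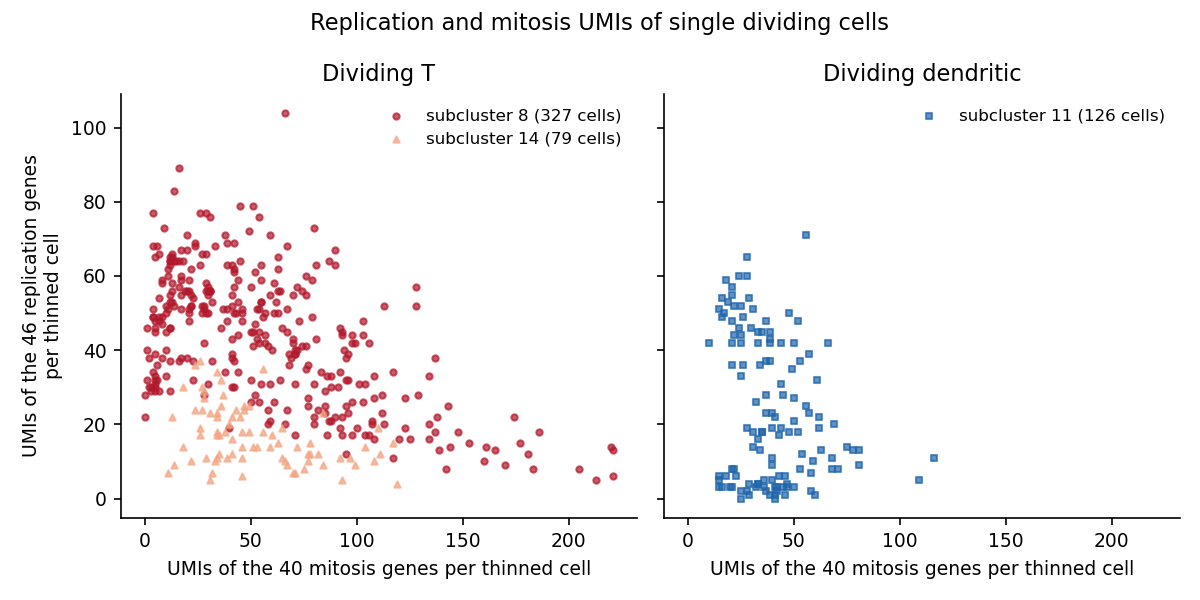
UMIs of the 46 replication genes against UMIs of the 40 mitosis genes in single cells thinned to 7537 UMIs. T cells of subcluster 8 run from many replication and few mitosis UMIs to the reverse, subcluster 14 lies along the lower edge, and 37 of the 126 dendritic cells lie under 8 replication UMIs.

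The sums of replication and mitosis transcripts were set against each other across cells. Spearman's rho between the 2 sums was -0.44 over 406 T cells and -0.23 over 126 dendritic cells, as a description of cells that share a library and a fixed depth. By mouse it was -0.42, -0.53 and -0.42 in T cells and -0.056, -0.55 and -0.29 in dendritic cells, so that mouse 1, with 64 of the 126 dendritic cells, showed almost no relation. In dividing T cells with at most 30, with 31 to 60 and with 61 or more mitosis UMIs, the mean replication sum per cell was 48.0 ± 1.74, 43.1 ± 6.58 and 28.5 ± 3.69 UMIs (SD over 3 mice). In dendritic cells it was 33.9 ± 6.82, 21.1 ± 4.66 and 16.1 ± 2.01 UMIs, the last from 15 cells. In every bin the T mean stood above the dendritic one, and all T mice stood above all dendritic mice. The lineages did not fill the bins alike. The lowest bin began at 0 mitosis UMIs in T cells and at 10 in dendritic cells, and the highest ended at 221 and 116. Of the 46 genes, 43 had a lower level in the highest than in the lowest bin of T cells, the exceptions being Rrm1, Rrm2 and Mcm10.

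The members differed in how steeply they fell from the lowest to the highest mitosis bin of T cells. Ung fell from 96.2 to 4.07 CPM of thinned cells, a ratio of 0.0423, and did so in each mouse, from 90.3 to 3.09, from 111 to 6.03 and from 98.6 to 4.82 CPM. Next came Cdc6 (53.7 to 9.77 CPM), Mcm2 (ratio 0.256) and Mcm6 (377 to 103 CPM), all licensing factors or ring subunits. Dut went from 794 to 519 CPM, lower in each mouse, and Tk1 from 142 to 138 CPM. Rrm2 went from 185 to 280 CPM, but the mice differed, from 201 to 222 and from 129 to 408 CPM in mice 1 and 3 and from 221 to 187 CPM in mouse 2. In dendritic cells Mcm6 went from 171 to 44.2 CPM and Ung from 22.1 to 8.85 CPM. Ung rested there on 7 UMIs in the lowest bin and 1 in each of the other 2, so that no course could be read. The difference in Ung between the lineages lay in the lowest bin, where T cells had 90.3 to 111 CPM and dendritic cells 0 to 39.8 CPM. That bin ran from 0 to 30 mitosis UMIs in T cells and from 10 to 30 in dendritic cells. The lineages were thus not matched within it, and the part of this in the difference was not tested. In the middle bin T cells had 7.11 and dendritic cells 1.92 CPM.

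**Figure D4:**
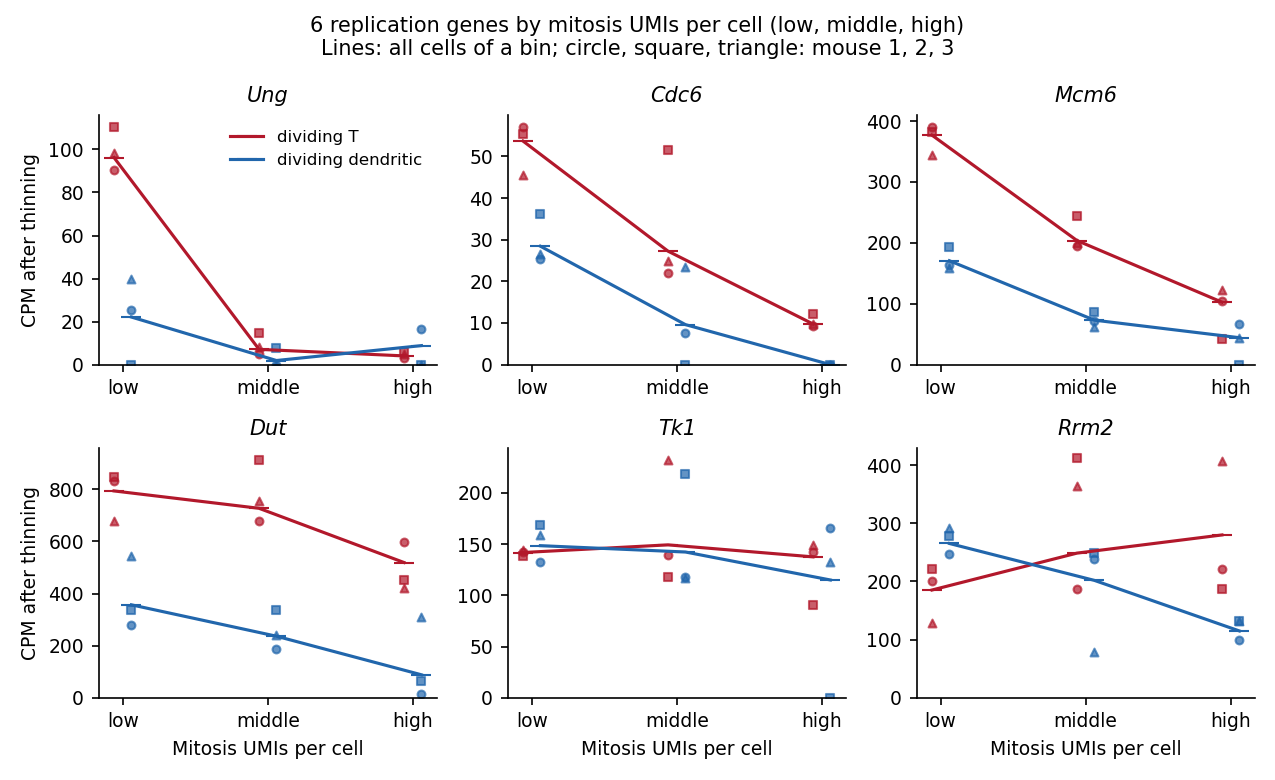
CPM of 6 replication genes in thinned dividing cells with at most 30, 31 to 60 and at least 61 mitosis UMIs, for T (red) and dendritic cells (blue); lines join all cells of a bin, points are single mice. Ung is high in the lowest bin of T cells and at 14.7 CPM or less in the others, Cdc6 and Mcm6 fall in steps, Dut goes from 794 to 519 CPM in T cells, and Rrm2 over all T cells is highest in the highest bin, though not in mouse 2.

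Because the dividing T cells carried more mitosis transcripts, the comparison was repeated on cells matched within each mouse for their mitosis UMIs (64, 31 and 27 cells of each class in mice 1, 2 and 3). In that setting 30 of 45 members were higher in T cells and 0 lower, with a median of 0.57, where 20.1% of all genes were called higher. The mitosis list had 0 of 40 higher and 10 lower with a median of -0.14, so the match left fewer mitosis transcripts in T cells. More members were thus called in matched cells than over all dividing cells, and the part of the inexact match in this was not tested. With subcluster 8 alone as dividing T cells 27 members were called higher, with a median of 0.51, where 20.5% of all genes were called higher.

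The dividing dendritic cells were not of 1 kind. By the authors' coarser clusters, 37, 18 and 26 cells of mice 1, 2 and 3 lay in the cluster named for Xcr1, a receptor of type 1 dendritic cells. A further 26, 14 and 3 lay in the cluster named for Ifitm1, and 3 cells in all in the cluster named for Pdcd1. Cells of the Xcr1 cluster had 218 to 350 CPM of Xcr1 and 1.59 to 6.74 CPM of Cd209a, a lectin of type 2 dendritic cells. Those of the Ifitm1 cluster had 739 and 580 CPM of Cd209a in mice 1 and 2 and 32.0 CPM in the 3 cells of mouse 3. The replication sum was 2619, 3491 and 3222 CPM in the Xcr1 cells and 3905, 4824 and 3483 CPM in the Ifitm1 cells. Within each mouse the Ifitm1 cells were higher, though the ranges overlapped. Mcm4 had 38.0, 31.7 and 44.9 CPM in the Xcr1 cells and 88.5, 87.4 and 21.3 CPM in the Ifitm1 cells, so that mouse 3, with its 3 Ifitm1 cells, went the other way. With the Xcr1 cells alone as dividing dendritic cells 26 members were called higher in T cells and 0 lower, against 18 with both kinds. Over all genes 21.3% were called higher in that setting.

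The non-dividing classes, subclusters 5 and 6, also differed in level. The summed members were at 2802 ± 610 CPM in non-dividing T cells and at 1380 ± 229 CPM in non-dividing dendritic cells (SD, n = 3). Apart from subcluster 5, no subcluster outside the dividing ones reached the mean of subcluster 6. The order thus holds for subcluster 5 and not for non-dividing T cells at large. From non-dividing to dividing cells the mean rose for 45 of 46 members in T cells and for 44 of 46 in dendritic cells, which the definition of the classes favours. The rise was largest for Rrm2, 9.03-fold in T cells and 12.6-fold in dendritic cells, while 4 of the 6 ring subunits rose little by comparison, such as Mcm2 with 1.11-fold and 1.35-fold and Mcm6 with 1.20-fold and 1.53-fold. The other ring subunits rose more, Mcm5 by 1.69-fold and 2.24-fold and Mcm7 by 1.96-fold and 3.08-fold.

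Whether the change with division differed between the lineages was tested for all genes in 1 fit over the 4 classes. Subcluster 6 was taken from the Xcr1 cluster, while subcluster 11 also held cells of the Ifitm1 cluster. The dendritic change thus took in a difference in kind as well as division. Of 46 members, 4 changed less in T cells than in dendritic cells and 0 changed more. Over 9722 genes, 1.53% were called in the first direction and 0.278% in the other. The median of the members was -0.33 on the log2 scale against -0.09 over all genes, and 39 of 46 values were negative. The mitosis list had 12 of 40 called less in T cells and 1 more, with a median of -0.95.

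All 4 genes handle nucleotides or single strands. Tk1 had 54.3, 54.8 and 31.2 CPM in non-dividing T cells and 148 to 151 CPM in dividing ones, and 16.5, 16.4 and 9.52 CPM in non-dividing dendritic cells against 130 to 171 CPM in dividing ones. The ranges of the 2 dividing lineages overlapped while the non-dividing ones stood apart, with a 3.20-fold rise in T cells and a 10.3-fold rise in dendritic cells (log2 difference of the changes -1.81, SE 0.25, edgeR adjusted p = 0.00219). Tyms followed the same pattern, from 46.2 to 80.9 CPM up to 205 to 251 CPM in T cells and from 19.0 to 29.7 CPM up to 134 to 225 CPM in dendritic cells (-1.06, SE 0.22, edgeR adjusted p = 0.0246).
Rpa2 and Dut were different in that the T and dendritic classes were apart in both states. Rpa2 stood at 109, 122 and 84.3 CPM in non-dividing T cells and at 27.2, 24.9 and 18.8 CPM in non-dividing dendritic cells, and its rise was 1.27-fold and 2.78-fold (-1.15, SE 0.21, edgeR adjusted p = 0.0115). Dut stood at 470, 487 and 380 CPM and at 111, 112 and 89.5 CPM, with a rise of 1.54-fold and 2.77-fold (-0.89, SE 0.17, edgeR adjusted p = 0.0165). For Dut the non-dividing T cells had more than the dividing dendritic cells in every mouse. Without mouse 2 none of the 46 members was called and 2 of all genes were, against 176 with all mice. At an unadjusted p under 0.05 the members without mouse 2 numbered 5 of 46, and all genes 862 of 10316. DESeq2 on all mice called the 4 genes as well. Single calls were also lost without mouse 1 (Rpa2 and Tyms) and without mouse 3 (Dut). With Xcr1 cells alone as dividing dendritic cells 2 of the 4 calls remained, and 36 of all genes were called. For Ung the difference of the changes was 0.81 (SE 0.36, edgeR adjusted p = 0.314).

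**Figure D5:**
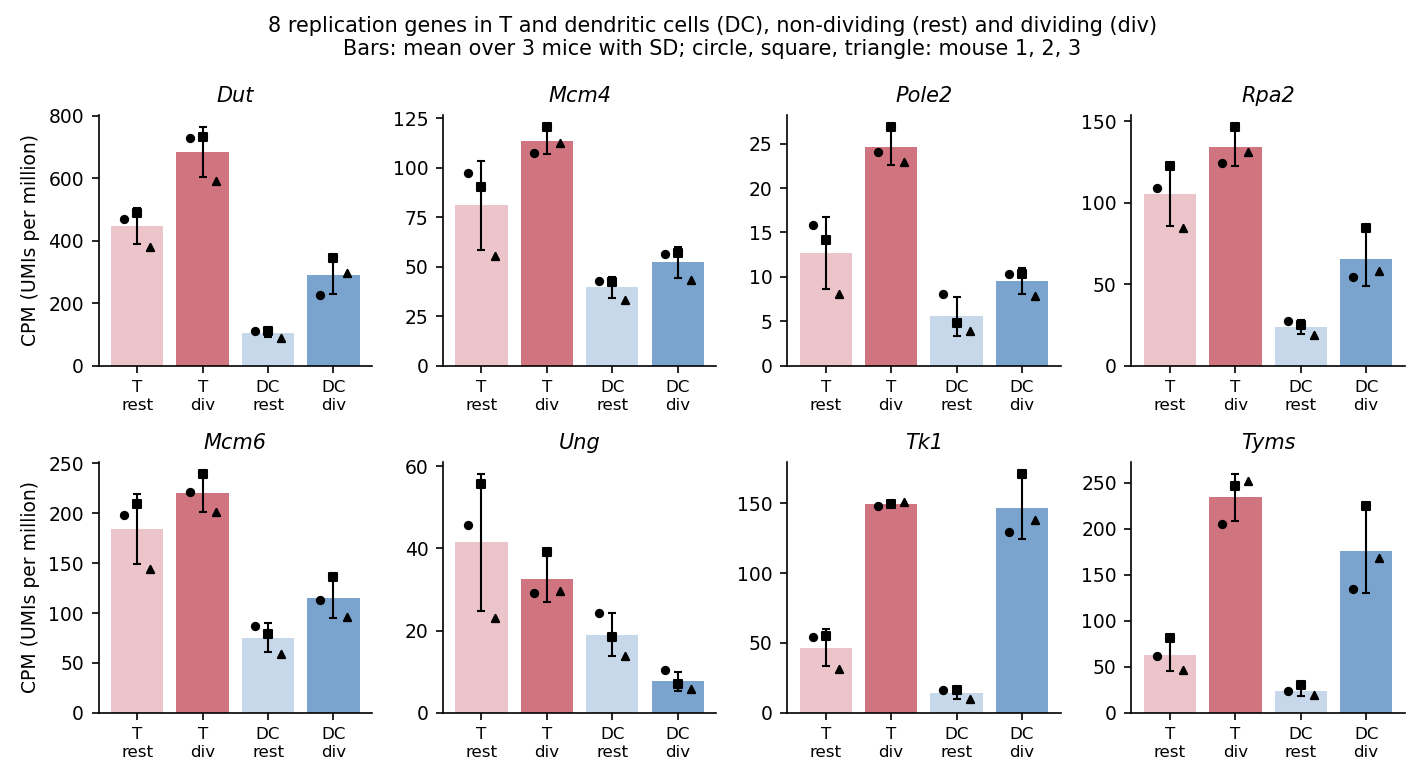
CPM of 8 replication genes in non-dividing (rest) and dividing (div) T and dendritic cells (DC); bars are means of 3 mice with the SD, points are single mice. Dut, Mcm4, Pole2 and Rpa2 have higher means in T cells in both states, Tk1 and Tyms differ between the non-dividing classes and overlap between the dividing ones, and Ung is lower in dividing than in non-dividing dendritic cells.

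Other genes of the pathway, from lists of named genes, changed in both directions between the dividing classes. Of 35 further origin and fork factors tested, 12 were higher in T cells and 3 lower. Hells, a chromatin remodeller, had 101, 105 and 88.2 CPM against 41.2, 41.5 and 42.2 CPM (log2 1.08, SE 0.16, edgeR adjusted p = 2.82e-05), and Dnmt1, the maintenance methyltransferase that Uhrf1 recruits, differed by 0.64 (SE 0.13). Dna2, a nuclease of lagging-strand flaps, went the other way with 12.3, 14.3 and 15.9 CPM against 75.7, 76.9 and 58.8 CPM (log2 -2.51, SE 0.20, edgeR adjusted p = 4.03e-08). The groups of each of these genes were far apart. Pold4, the small accessory subunit of polymerase delta, was also lower in T cells (-0.84, SE 0.14). With scaling to the number of cells the counts of this list were 1 higher and 2 lower.

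Among 24 further genes of nucleotide supply 11 were higher and 4 lower, and with scaling to the number of cells 5 were higher and 4 lower. The number higher was also 5 with DESeq2 and without mouse 1. Impdh1, the entry to guanine nucleotides, had 34.5, 26.4 and 37.0 CPM against 5.15, 5.19 and 4.90 CPM (log2 2.52, SE 0.29, edgeR adjusted p = 2.31e-06). Cad, which starts pyrimidine synthesis, and Ppat, which starts purine synthesis, differed by 1.97 (SE 0.29) and 1.55 (SE 0.26). Those lower in T cells included Samhd1, the hydrolase that breaks down deoxynucleotides, with 105, 89.0 and 94.4 CPM against 360, 290 and 226 CPM (log2 -1.75, SE 0.14, edgeR adjusted p = 3.44e-08). Dck, the deoxycytidine salvage kinase, and Dctpp1, a cleaner of the nucleotide pool, were lower at -0.97 (SE 0.15) and -0.92 (SE 0.14). Each of these 6 calls held in the 14 other fits in which the genes were followed.

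Of 32 regulators of entry into S phase 8 were higher in T cells and 6 lower, shares near the 20.5% and 23.4% over all genes tested. Ccnd1, a cyclin of G1, had 3.89, 3.29 and 1.76 CPM in dividing T cells and 279, 336 and 256 CPM in dividing dendritic cells (log2 -6.59, SE 0.20, edgeR adjusted p = 5.08e-13). Ccnd3 was lower in T cells too (-1.49, SE 0.18), whereas Cdk6, a kinase partner of these cyclins, had 133, 103 and 64.4 CPM against 11.8, 18.2 and 15.7 CPM (log2 2.63, SE 0.24, edgeR adjusted p = 1.61e-07). Of the inhibitors, Cdkn1a (p21) was lower in T cells (-2.14, SE 0.22) and Cdkn2a higher (3.86, SE 0.44), the latter with 37.2, 47.8 and 18.1 CPM against 4.12, 0 and 0.981 CPM. Rbl2, a relative of the retinoblastoma protein, was higher (1.96, SE 0.21). E2f1 itself overlapped between the lineages, at 36.5, 50.0 and 56.9 CPM against 36.6, 59.6 and 23.5 CPM, and was not called (0.09, SE 0.23, edgeR adjusted p = 0.789). Ccne1 and Ccne2, the cyclins that start S phase, had -0.21 (SE 0.17) and -0.64 (SE 0.27) and were not called.

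Of 29 genes of replication stress and repair 7 were higher in T cells and 1 lower, the share higher being near the 20.5% over all genes tested. The checkpoint kinases Chek1 and Atr differed by 1.54 (SE 0.28) and 1.51 (SE 0.27), and Ercc6l by -1.14 (SE 0.22). In the mitosis list Cenpf, Aspm and Ube2c led at 1.08 (SE 0.15), 1.14 (SE 0.17) and 0.72 (SE 0.11), with Mki67 at 0.44 (SE 0.11), Top2a at 0.39 (SE 0.11) and Cdk1 at 0.52 (SE 0.12), and Kif23 was the gene called lower (-0.53, SE 0.14). Without mouse 1 the calls of Top2a and Kif23 were lost, and without mouse 2 that of Kif23. These mitosis calls went with the higher mitosis sum of the T cells, 7728 ± 858 against 5360 ± 145 CPM (SD, n = 3), and in cells matched on mitosis UMIs the differences were -0.11 for Cenpf (SE 0.14), -0.51 for Ube2c (SE 0.13), 0.48 for Aspm (SE 0.22), 0.16 for Top2a (SE 0.11) and 0.07 for Mki67 (SE 0.12). Of these 5 genes only Ube2c was called in matched cells.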

How the data were processed

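The authors deposited a table of whole UMI counts per gene and cell and a cell annotation, per the file headers. Per the submitters' processing notes, Cell Ranger 3.1.0, Seurat 3.1.5 and the mm10 build were used. The deposited annotation gives UMI counts, the percent of mitochondrial UMIs, cluster numbers and a hashtag per cell. The filters were not stated. No doublet caller was run here. All cells came from 1 library, so no barcodes were shared between libraries, and the 8 cells that carry no hashtag enter no class.

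For each class, the UMI counts of a mouse's cells were added up and tested with edgeR 4.0.16 in R 4.3.3 (quasi-likelihood F test, TMM, filterByExpr, Benjamini-Hochberg over all genes tested), with DESeq2 1.42.0 as an alternative. The standard error is the log2 fold change divided by the root of F. The mouse was a block because both classes came from the same animal. Deviations from the class means, as log2 of CPM plus 1, correlated at -0.000626, 0.0639 and 0.0574 between the classes of mice 1, 2 and 3. The p-values set the difference between classes within mice against its variation over 3 mice, which edgeR estimates partly from all genes. For values per cell, cells were drawn down at random to 7537 UMIs (the 10th percentile of depth), which 598 cells did not reach, 2 of them in the dividing classes. The scripts were tested on simulated data.

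The members and gene lists were chosen with earlier results of these data known. Values per mouse are given for the 8 called members with the largest fold change, for 16 members set by name, and for up to 3 genes per direction of each list with the smallest adjusted p, of which 3 are not reported here. Pola1, Rpa3 and other members are given by their difference. Cdc45 and Mcm10 were chosen after their values were seen. The alternatives were other scalings, no filter, no block, DESeq2, a stricter threshold of 0.01, each mouse left out, and other choices of the dividing cells.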

Additional observations from a re-analysis of the deposited data

Results flagged for a closer look

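In 4 of the 46 replication genes the change from non-dividing to dividing cells differed between T and dendritic cells by a test of the difference itself (edgeR's quasi-likelihood test over all genes). The log2 difference of the changes, T minus dendritic, was -1.81 for Tk1, -1.15 for Rpa2, -1.06 for Tyms and -0.89 for Dut (SE 0.25, 0.21, 0.22 and 0.17). In each gene the rise was smaller in T cells. The level in subcluster 5 was above that in subcluster 6 in all 3 mice. Over the 8 other fits the values ran from -1.85 to -1.48 for Tk1, -1.20 to -0.74 for Rpa2, -1.11 to -0.68 for Tyms and -0.92 to -0.58 for Dut. Subcluster 5, the non-dividing T class, also had 751 ± 137 CPM of mitosis transcripts against 268 ± 28.5 CPM in subcluster 6 (SD, n = 3), and the part of this in the result was not tested.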

How the results depend on the processing

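Members called higher in dividing T cells numbered 18, and 10 with DESeq2, 30 with cells matched on mitosis UMIs, 5 with scaling to the number of cells, 11 without lineage-conflicting cells (which removed 22 T and 53 dendritic cells), 10 at a threshold of 0.01, and 9 to 18 with a mouse left out. With no replicate block 15 were called. In each of the 15 alternatives 0 were called lower. Genes called in all numbered 3886, and 2471 with DESeq2 and 1958 in thinned cells, where fewer genes were tested; scaling to the number of cells gave 966 higher and 1968 lower against 1812 and 2074. Among members not called, and Cdc6, signs changed. Tk1 was at 0.108 with Xcr1 cells alone, 0.0934 in matched cells, 0.135 with the mitosis gate and 0.0512 with subcluster 8 alone. With the mitosis gate Cdc6 was at -0.112, Cdt1 at -0.253 and Uhrf1 at -0.0338. With scaling to the number of cells Cdt1 was at -0.0517, Pcna at -0.0548, Rrm2 at -0.0227 and Uhrf1 at -0.0643. Without lineage-conflicting cells Cdt1 was at -0.0827, Mcm7 at -0.0376 and Uhrf1 at -0.134. With a mouse left out Cdt1 ran from -0.0556 to 0.345, Rrm2 from -0.0631 to 0.274, Uhrf1 from -0.0386 to 0.196 and Tk1 from -0.190 to 0.0121. For the change with division, 4 members were called, 2 with no replicate block, 2 with Xcr1 cells alone, and 0 to 4 with a mouse left out. Genes called there numbered 176, 116 with RLE size factors (36 higher and 80 lower, against 27 and 149), 36 with Xcr1 cells alone, 518 with no filter, 98 with no replicate block, and 2 to 257 with a mouse left out. The cause was not tested. The Xcr1 alternative was added after seeing the data. Depth limits Orc1 and the dendritic values of Ung, Cdc6 and Pole2, and the dendritic class rests on 30 to 65 cells per mouse.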

Other observations

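Across all dividing cells of a class, Dut, Rrm2, Pcna and Lig1 followed the sum of the other members most closely in dendritic cells, with Spearman's rho of 0.79, 0.76, 0.75 and 0.75 over 126 thinned cells, and Dut, Lig1, Mcm7 and Pcna in T cells, with 0.58, 0.57, 0.54 and 0.53 over 406. Within the T cells Rrm2 had a rho of 0.15 with the mitosis sum while Mcm6 had -0.55. The cells share 1 library and a fixed depth, and these genes were picked after their values were seen. Of non-dividing T cells in subcluster 5, 305 of 443 thinned cells (68.8%) held at least 8 replication UMIs, close to the 70.6% of dividing dendritic cells, against 5.75% in subcluster 2.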
